A study of Mus musculus with 19 samples.

Results

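Cytochrome P450 genes of families 2 to 4 were followed in the lungs of 19 male mice. The set holds every gene whose symbol is Cyp2, Cyp3 or Cyp4 followed by 1 letter and a number, apart from Cyp2f2, and whose probe the scanner software called well above background with lung RNA on 4 or more of 19 arrays. Of 72 such symbols in RefSeq's mouse gene table, 49 had a probe on the array and 31 passed, among 19315 genes tested in all. Cyp2c29 passed with 4 arrays, the minimum, and Cyp2j5, Cyp3a16 and Cyp4f14 fell just outside with 2 arrays each.

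The mice were MutaMouse males of transgenic strain 40.6, a line that carries a bacterial reporter gene for mutation assays, and were 25 weeks old. The agent, benzo(a)pyrene (BaP), is a combustion product; it was given by gavage every day for 28 days at 0 mg/kg/day (control, n = 5), 25 mg/kg/day (n = 5), 50 mg/kg/day (n = 4) or 75 mg/kg/day (n = 5). Each array is 1 mouse: lung RNA, from a part of the lung taken 3 days after the last dose, was labelled with Cy5 and hybridised with universal mouse reference RNA, made from mouse cell lines, labelled with Cy3. A level below is therefore a log2 ratio of lung over that common reference, a difference is the change of this ratio in log2 units, and ratios of different genes were not set against each other.

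P450 enzymes insert oxygen into lipids, drugs and pollutants, with electrons passed on by P450 oxidoreductase. Family 2 is the largest and most varied in rodents and includes the enzymes of Clara (club) cells that act on inhaled and ingested toxicants. Family 3 clears drugs and steroids, mainly in liver and gut, and family 4 hydroxylates fatty acids and eicosanoids. Families 2 to 4 are controlled chiefly by receptors such as the constitutive androstane receptor, the pregnane X receptor and the peroxisome proliferator-activated receptors, whereas the aryl hydrocarbon receptor, the receptor that BaP engages, is best known for inducing family 1.

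Hybridisation used 6 slides, read on 5 different days, and the lung signal cleared background at 19777 to 27279 of 43379 spots. As a check of exposure, 5 of 8 p53 target genes rose at 25 mg/kg/day and 8 of 8 at 50 and at 75 mg/kg/day (limma, adjusted p under 0.05). Of all genes tested, 0.0518% and 1.08% passed in either direction at 25 and 50 mg/kg/day, and 2.65% rose at 75. Mouse 13 (50 mg/kg/day) and control 1 stood apart by genes of hepatocytes: albumin (Alb) had a log2 ratio of 4.59 in mouse 13 and 3.02 in control 1, and at most 0.39 in the other 17 mice. Control 5 stood apart by skeletal muscle genes, whose mean log2 ratio was 4.29 above the control mean. The scanner software marked 4 arrays for evaluation: control 1, control 3, mouse 12 (50 mg/kg/day) and mouse 20 (75 mg/kg/day). The calls of Cyp2j6 and Cyp2j9 at 75 mg/kg/day and the counts of calls are given with and without these 4 arrays. Other results include them, except where an alternative run is named. In whole-tissue RNA, fewer cells of a type and less RNA per cell cannot be told apart.

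Few of the P450 genes were called in the dose comparisons, and a missing call does not show that a gene was unchanged. At 25 mg/kg/day 0 of 31 passed the test, against 0.0518% of all genes tested; Cyp2b10, Cyp2j6, Cyp2j9 and Cyp2s1 (4 of 31) had an unadjusted p under 0.05, as did 7.8% of all genes. At 50 mg/kg/day 0 of 31 passed, against 1.08% of all genes, and Cyp2d12, Cyp2j6, Cyp2j9 and Cyp2s1 (4 of 31) had an unadjusted p under 0.05, near the 12.7% of all genes. At 75 mg/kg/day Cyp2j6 and Cyp2j9 rose, 2 of 31 against 2.65% of all genes that rose, and 0 fell, against 1.51%. Between 75 and 25 mg/kg/day 0 of 31 passed, against 0.549%, with Cyp4f39 alone (1 of 31) at an unadjusted p under 0.05, against 6.85% of all genes. The linear trend over dose called the same 2 genes, Cyp2j6 and Cyp2j9, as rising, against 2.82% of all genes, and 0 as falling, against 1.83%. These tests were limma's moderated test over 19 arrays with Benjamini-Hochberg adjustment over 19315 genes. With 2 genes of 31, the share called at 75 mg/kg/day and by the trend is near that of all genes and is no result about the P450 genes as a set.

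**Figure D1:**
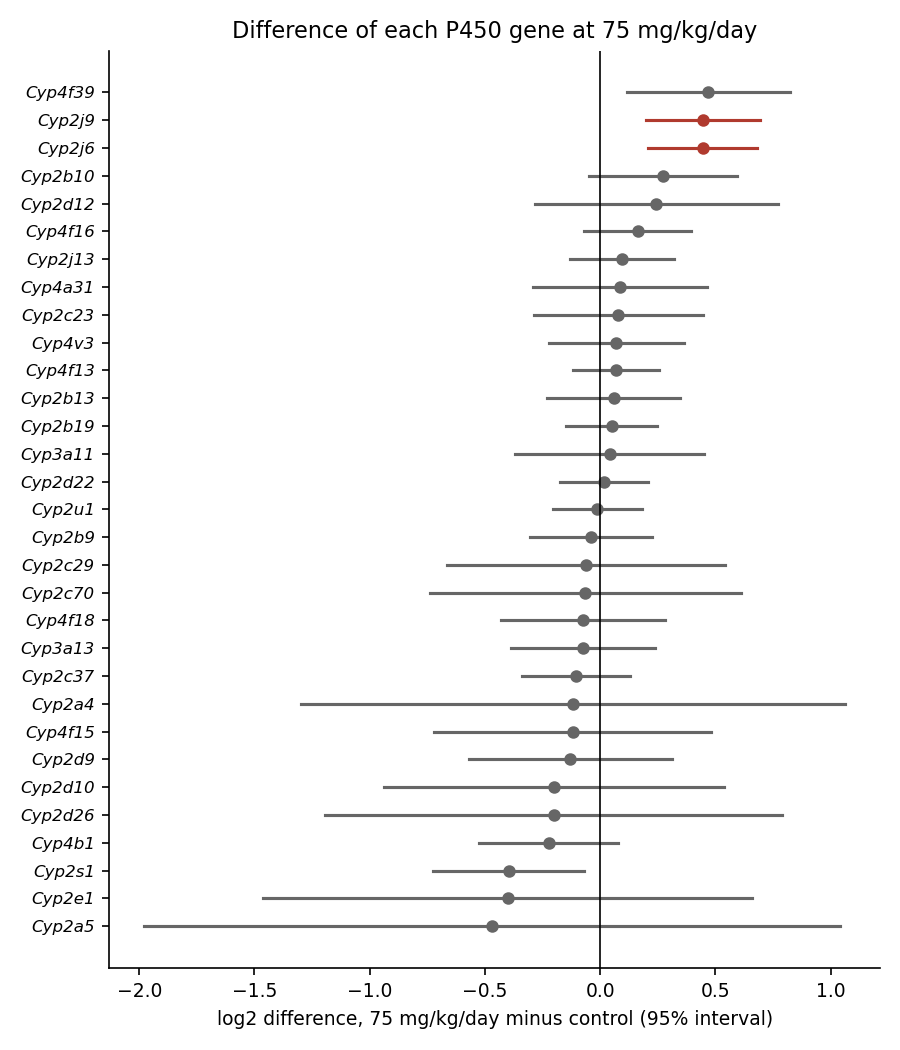
Log2 difference of each of the 31 P450 genes between the 5 mice at 75 mg/kg/day and the 5 controls (points) with its 95% confidence interval from limma (lines), sorted by size; red marks an adjusted p under 0.05. Cyp2j6 and Cyp2j9 are the red points, at 0.45 each, and the wide intervals belong to Cyp2a5, Cyp2a4, Cyp2e1 and Cyp2d26.

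The median difference of the 31 genes was 0.04 at 25 mg/kg/day (0.01 over all genes), 0.24 at 50 mg/kg/day (-0.001 over all genes) and -0.01 at 75 mg/kg/day (-0.01 over all genes). The value at 50 mg/kg/day rested on 1 animal. Without mouse 13 it was 0.04, with 19 of 31 genes above 0 in place of 27 of 31.

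Cyp2j6 and Cyp2j9 were the genes that rose. They encode epoxygenases that turn arachidonic acid into epoxyeicosatrienoic acids, and they lie in 1 cluster with the other Cyp2j genes. RefSeq (GRCm38.p6) places both start sites on the minus strand of chromosome 4. The 250 bases before each start site are shown, because the 2 genes moved together, with that of Cyp2s1, described next; the windows are chr4:96553652-96553901, chr4:96591486-96591735 and chr7:25816526-25816775, all on the minus strand. Capitals mark GCGTG, the core of the aryl hydrocarbon receptor's response element.
Cyp2j6: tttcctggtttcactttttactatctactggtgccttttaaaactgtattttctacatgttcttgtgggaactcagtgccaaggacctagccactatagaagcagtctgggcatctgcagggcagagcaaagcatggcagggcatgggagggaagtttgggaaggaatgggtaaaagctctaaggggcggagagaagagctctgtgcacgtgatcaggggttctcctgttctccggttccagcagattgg
Cyp2j9: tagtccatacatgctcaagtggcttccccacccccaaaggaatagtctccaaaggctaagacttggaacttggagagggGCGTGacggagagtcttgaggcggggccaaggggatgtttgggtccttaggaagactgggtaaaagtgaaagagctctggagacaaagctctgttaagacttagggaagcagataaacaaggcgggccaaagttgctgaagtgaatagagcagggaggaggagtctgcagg
Cyp2s1: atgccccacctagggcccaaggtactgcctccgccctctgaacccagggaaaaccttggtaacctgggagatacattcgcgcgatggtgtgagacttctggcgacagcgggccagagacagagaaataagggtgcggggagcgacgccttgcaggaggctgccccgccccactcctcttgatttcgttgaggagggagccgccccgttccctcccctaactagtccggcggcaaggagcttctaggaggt
GCGTG occurred once before Cyp2j9, 171 bases upstream of the start site, and in neither of the other two windows. On both strands it was found in 28.2% of all 32851 RefSeq promoter windows of this length and in 6 of the 26 P450 genes that had a window. The half-site AGGTCA of nuclear receptors, searched the same way, was in none of the 3 windows and in 14.0% of all windows. The antioxidant response element's core TGACNNNGC was likewise in none of the 3 and in 10.2% of all windows.

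In the 5 controls the log2 ratio of Cyp2j6 was 0.17, 0.11, 0.36, 0.57 and 0.60 (controls 1 to 5). At 25 mg/kg/day it was 0.43, 0.96, 0.88, 0.56 and 0.90 in mice 6 to 10. At 50 mg/kg/day it was 0.81, 0.70, 0.85 and 1.00 in mice 12 to 15, and at 75 mg/kg/day 0.94, 0.80, 0.73, 0.74 and 0.83 in mice 16 to 20. Every mouse at 50 and 75 mg/kg/day lay above every control, as did 2.54% and 3.05% of all genes tested; at 25 mg/kg/day mice 6 and 9 lay within the control range. Group means were 0.36 ± 0.22 in controls (SD, n = 5), 0.75 ± 0.24 at 25, 0.84 ± 0.13 at 50 (n = 4) and 0.81 ± 0.09 at 75 mg/kg/day. The difference from control was 0.39 ± 0.11 (SE; adjusted p = 0.382 in limma's test) at 25 mg/kg/day, 0.48 ± 0.12 (adjusted p = 0.0623) at 50 and 0.45 ± 0.11 (adjusted p = 0.0298) at 75, a 1.36-fold rise with a 95% interval of 1.16 to 1.60. From 25 to 75 mg/kg/day the difference was 0.06, with an interval of -0.18 to 0.29, so the step between these doses was smaller than its error.

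Cyp2j9 gave log2 ratios of 1.32, 1.18, 1.56, 1.73 and 1.95 in the controls. The ratios were 1.80, 1.85, 1.89, 1.73 and 2.10 at 25 mg/kg/day, 1.98, 2.07, 1.82 and 2.13 at 50, and 2.06, 1.84, 1.95, 1.99 and 2.14 at 75. Controls 1 and 2 were the lowest mice for both genes, and only control 5 reached into the range of the mice at 50 and 75 mg/kg/day for Cyp2j9. Its difference from control was 0.32 ± 0.12 (adjusted p = 0.501 in limma's test) at 25 mg/kg/day, 0.45 ± 0.13 (adjusted p = 0.0972) at 50 and 0.45 ± 0.12 (adjusted p = 0.0385) at 75, or 1.36-fold with an interval of 1.15 to 1.62. The reference channel was well above background for Cyp2j9 on 2 of 19 arrays, so its ratio has a denominator close to background. Cyp2j13, the third gene of the cluster that passed the filter, differed by -0.01, 0.06 and 0.09 at the 3 doses, with an interval of -0.13 to 0.32 at 75 mg/kg/day. Its lung signal was well above background in 2 of 5 controls and its reference on 6 of 19 arrays. These values are therefore neither a measured change nor a measured lack of one.

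**Figure D2:**
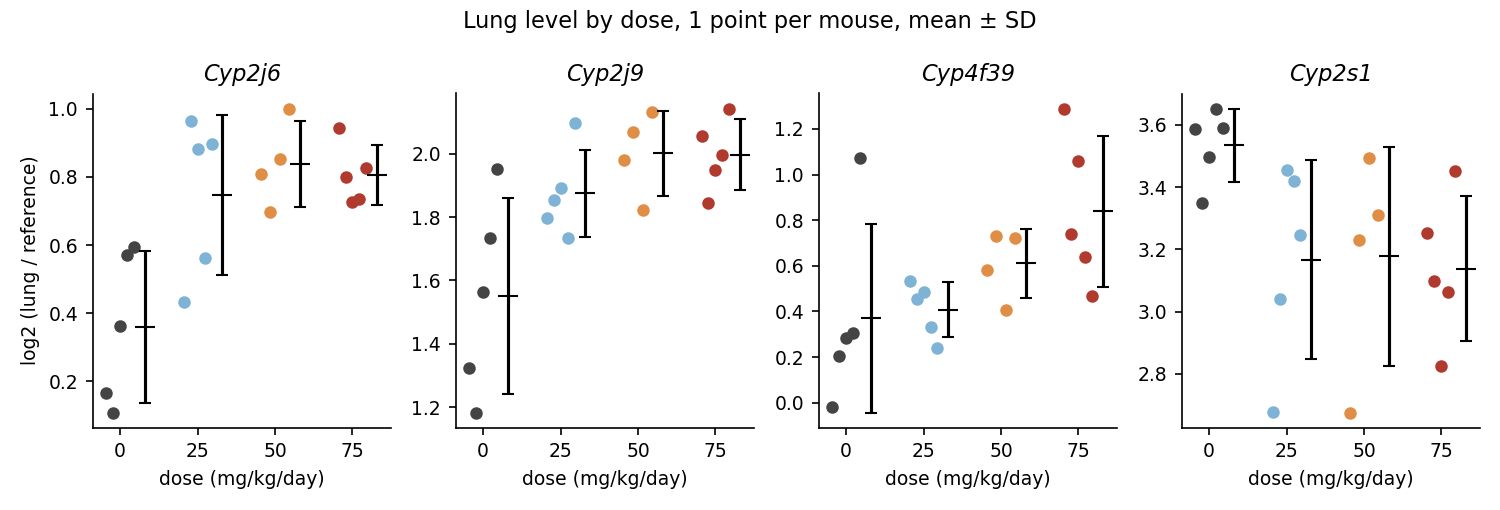
Log2 ratio of lung over reference RNA against dose in mg/kg/day for Cyp2j6, Cyp2j9, Cyp4f39 and Cyp2s1; each point is 1 mouse, and the bar beside each group is its mean ± SD (n = 5, 5, 4 and 5; the vertical axes differ and do not start at 0). For Cyp2j6 all mice at 50 and 75 mg/kg/day lie above the highest control at 0.60, and for Cyp2s1 the controls form a narrow band with a mean of 3.53.

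Where 1 slide carried both groups, Cyp2j6 was higher at 75 mg/kg/day than in control on 4 of 4 slides, by 0.16 to 0.66, and Cyp2j9 on 4 of 4 slides, by 0.21 to 0.82. Both calls at 75 mg/kg/day were lost without control 1 (adjusted p = 0.0776 and 0.0982), control 2 (0.0884 and 0.109), mouse 16 (0.0884 and 0.0976) or mouse 18 (0.055 and 0.0762). The call of Cyp2j9 alone was lost without control 3 (0.0594), mouse 19 (0.076) or mouse 20 (0.0711), and without the 4 arrays marked for evaluation the adjusted p was 0.164 for Cyp2j6 and 0.229 for Cyp2j9. Centring each array on its median in place of loess moved the median of all genes to 0.35 at 75 mg/kg/day; there Cyp2j6 differed by 0.47 and Cyp2j9 by 0.53 (adjusted p = 0.0587 and 0.0558). Endothelial markers had medians of 0.21, 0.21 and 0.26 at the 3 doses, and 2 of 10 rose by the trend, against 2.82% of all genes tested. Cyp2j9 correlated with their score at r = 0.46 (permutation p = 0.0469, adjusted p = 0.191) and rho = 0.51 (permutation p = 0.0261, adjusted p = 0.141). For Cyp2j6 r was 0.31 (permutation p = 0.195, adjusted p = 0.445) and rho 0.33 (permutation p = 0.167). The part of the endothelial markers in the rise was not tested. The trend called 0 P450 genes without control 1, 2 or 3 or mouse 16 or 19, and without mouse 20 it called Cyp4f39 alone. In the lung channel alone Cyp2j6 differed by 0.43 (adjusted p = 0.0187) and Cyp2j9 by 0.20 (adjusted p = 0.216).

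Cyp2s1, a P450 of epithelia that is known as an aryl hydrocarbon receptor target, had lower values at every dose, and none of the 3 differences passed the adjusted test. The controls had log2 ratios of 3.59, 3.35, 3.50, 3.65 and 3.59. At 25 mg/kg/day the ratios were 2.68, 3.04, 3.46, 3.42 and 3.25, at 50 mg/kg/day 2.68, 3.23, 3.49 and 3.31, and at 75 mg/kg/day 3.25, 3.10, 2.82, 3.06 and 3.45. The controls were closely spaced and the treated mice were spread below them, with overlap at each dose. The differences were -0.37 ± 0.16, -0.36 ± 0.17 and -0.40 ± 0.16 (SE), with unadjusted p of 0.0300, 0.0445 and 0.0203 and adjusted p of 0.581, 0.373 and 0.184 in limma's test. On shared slides Cyp2s1 was lower at 75 mg/kg/day on 4 of 4 slides and at 25 mg/kg/day on 4 of 4; at 50 mg/kg/day it was lower on 2 of 3 slides and higher by 0.14 on the other. With median centring the difference at 75 mg/kg/day was 0.35, where the median of all genes was also 0.35, and with the scanner software's processed signals Cyp2s1 fell by 0.52 (adjusted p = 0.0456). Over the 19 mice Cyp2s1 varied with a score of 9 club cell markers: deviations from the group mean correlated with r = 0.67 (permutation p = 0.00157, adjusted p = 0.0111) and rho = 0.76 (permutation p = 0.00027, adjusted p = 0.00837), and r was 0.66 without the 2 mice farthest from the median score. The club score relative to the control mean had a median of -0.94 at 25, 0.76 at 50 and -1.02 at 75 mg/kg/day, and its part in the Cyp2s1 values was not tested. Cyp2s1 also went with the adipocyte score (r = 0.62, permutation p = 0.00487, adjusted p = 0.0315; rho = 0.64, permutation p = 0.00343; r = 0.55 without the 2 farthest mice) and the cardiac muscle score (r = 0.61, permutation p = 0.00534, adjusted p = 0.033; rho = 0.62, permutation p = 0.00593; r = 0.23 without the 2 farthest mice).

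Cyp4f39, a fatty acid hydroxylase of the epidermal barrier, had the highest difference of the 31 genes at 75 mg/kg/day, and it did not pass. Its log2 ratio was -0.02, 0.21, 0.28, 0.31 and 1.07 in the controls, 0.24 to 0.54 at 25 mg/kg/day, 0.41 to 0.73 at 50, and 1.29, 0.74, 1.06, 0.64 and 0.47 at 75. Control 5, the mouse with skeletal muscle genes, lay above all 4 other controls and above 4 of the 5 mice at 75 mg/kg/day. The difference at 75 mg/kg/day was 0.47 ± 0.17 (adjusted p = 0.139 in limma's test) and became 0.65 (adjusted p = 0.0104) without control 5. It passed with the slide as a block (0.52, adjusted p = 0.0255), and on shared slides it was higher on 4 of 4 slides, by 0.43 to 0.75. The part of the muscle genes in this value was not tested.

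Cyp2a4 and Cyp2a5, whose enzymes hydroxylate steroids and coumarin and activate nitrosamines, varied widely between mice in every group, and no dose difference passed. Cyp2a5 had log2 ratios of 4.81, 4.45, 6.08, 8.06 and 5.55 in the controls and 4.20, 4.56, 6.11, 6.14 and 5.77 at 25 mg/kg/day. It had 4.43, 7.76, 7.91 and 6.00 at 50 and 5.44, 4.10, 4.89, 5.06 and 7.12 at 75 mg/kg/day. Control 4 and mice 13, 14 and 20 were the 4 highest, so that every group but the 25 mg/kg/day group held a mouse above 7. The same 4 mice were highest for Cyp2a4. The reference was well above background on 11 of 19 arrays for Cyp2a5 and 17 for Cyp2a4, and not in the lowest mouse of either, so the full spread has no exact fold. Differences from control for Cyp2a5 were -0.44 ± 0.72, 0.74 ± 0.76 and -0.47 ± 0.72 (SE; adjusted p = 0.936, 0.752 and 0.804 in limma's test). For Cyp2a4 the difference at 50 mg/kg/day was the largest of the 31 genes there, 0.96 ± 0.60 (adjusted p = 0.536). Its 3 probes gave 0.64 to 0.96 at that dose; the 2 genes have near-identical sequences, and their probes may not tell them apart.

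The spread of these genes went with markers of club cells, of adipocytes and of cardiac muscle. Over the 19 mice the deviation from the group mean correlated with the club cell score at r = 0.84 for Cyp2a4 and 0.81 for Cyp2a5 (permutation p = 5e-05 each, adjusted p = 0.000861; rho = 0.74 and 0.71, permutation p = 0.00046 and 0.00103, adjusted p = 0.0102 and 0.0158). Without control 4 and mouse 20, the 2 mice farthest from the median score, r was 0.67 and 0.66. The same mice also had high adipocyte and cardiac muscle scores: the club score correlated with the adipocyte score at r = 0.91 and with the cardiac muscle score at r = 0.92 over these 19 mice. Cyp2a4 correlated with the adipocyte score at r = 0.87 (permutation p = 1e-05, about the smallest that 100000 resamples give, adjusted p = 0.00062; rho = 0.80, permutation p = 7e-05) and with the cardiac muscle score at r = 0.75 (permutation p = 0.00029, adjusted p = 0.00375; rho = 0.66, permutation p = 0.0023), or 0.77 and 0.52 without the 2 mice farthest from the median score. For Cyp2a5 r with the adipocyte score was 0.82 (permutation p = 3e-05, adjusted p = 0.000775, rho = 0.77). With the cardiac muscle score its r was 0.72 (permutation p = 0.00049, adjusted p = 0.00543, rho = 0.61). Without the 2 mice farthest from the median score these r were 0.70 and 0.46. Which of these scores Cyp2a4, Cyp2a5, Cyp2s1 and Cyp2e1 go with cannot be told apart. In all, 155 pairs of 31 genes and 5 scores were computed and 29 had an adjusted p under 0.05, each with r above 0. The permutations shuffled the 19 deviations freely, although the group means had been removed from them. Their p values are therefore somewhat too small, which matters most for adjusted p values near 0.05. Slide was not removed from the deviations, and its part in the correlations was not tested.

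**Figure D3:**
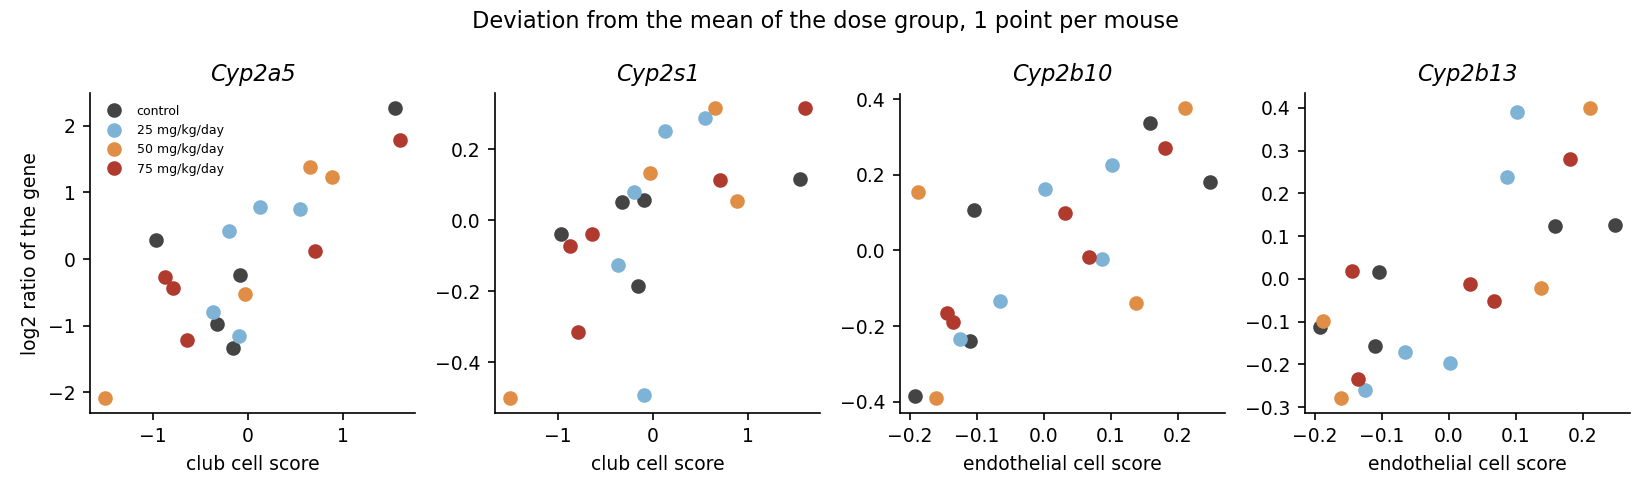
Deviation of a gene's log2 ratio from the mean of its dose group (vertical) against the deviation of a cell type marker score (horizontal, mean log2 ratio of the markers), 1 point per mouse, coloured by dose. Cyp2a5 and Cyp2s1 rise with the club cell score (r = 0.81 and 0.67) and Cyp2b10 and Cyp2b13 with the endothelial score (r = 0.71 and 0.74).

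The Cyp2b genes, whose enzymes metabolise barbiturates and are induced through the constitutive androstane receptor in liver, had no call at any dose. Over the 19 mice their log2 ratios spanned from 0.51 (Cyp2b19) to 1.01 (Cyp2b10). For Cyp2b10 the reference was well above background on 12 of 19 arrays. Cyp2b10 had log2 ratios of 3.71 to 4.44 in the controls, 4.19 to 4.66 at 25, 3.96 to 4.72 at 50 and 4.18 to 4.64 at 75 mg/kg/day. Its differences were 0.33, 0.25 and 0.27, with unadjusted p of 0.0433, 0.141 and 0.0895 and adjusted p of 0.624, 0.556 and 0.379 in limma's test. Cyp2b13 differed by 0.12, 0.11 and 0.06 and Cyp2b9 by 0.07, 0.05 and -0.04. Cyp2b19, known from keratinocytes, differed by 0.10, 0.08 and 0.05. A second probe of Cyp2b9 gave 0.37, 0.26 and 0.28, closer to the values of Cyp2b10, and probes of these similar genes may share transcripts.

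Variation of Cyp2b10, Cyp2b13 and Cyp2b9 went with 10 endothelial markers, and that of Cyp2b19 did not (r = -0.47, permutation p = 0.0441, adjusted p = 0.185; rho = -0.51, permutation p = 0.0264, adjusted p = 0.141). The correlation of deviations was r = 0.71 for Cyp2b10 (permutation p = 0.00086, adjusted p = 0.00784), 0.74 for Cyp2b13 (permutation p = 0.00035, adjusted p = 0.00417) and 0.59 for Cyp2b9 (permutation p = 0.00635, adjusted p = 0.0365). The Spearman coefficient was 0.74, 0.71 and 0.65, with permutation p of 0.00038, 0.00084 and 0.00326 (adjusted p = 0.00982, 0.0145 and 0.0332). Without control 3 and mouse 15 r was 0.64, 0.69 and 0.44, the last with a permutation p of 0.0771. Cyp4v3, a fatty acid hydroxylase of the eye and other tissues, correlated at r = 0.70, Cyp4a31 at 0.70 and Cyp4f39 at 0.59 (permutation p = 0.00123, 0.00126 and 0.00554; adjusted p = 0.0093, 0.0093 and 0.033). Their rho was 0.71, 0.69 and 0.61 (permutation p = 0.00112, 0.00134 and 0.00726; adjusted p = 0.0158, 0.0173 and 0.0592), and r without control 3 and mouse 15 was 0.71, 0.63 and 0.74. The endothelial score relative to the control mean ranged from -0.19 to 0.25 in controls and from 0.08 to 0.40 at 75 mg/kg/day. Of its 10 markers 2 rose by the linear trend, against 2.82% of all genes tested, and the part of this in the Cyp4f39 values was not tested. The score and these genes also differed by slide. On slide 3 (mice 8, 15 and 16) the score was 4.23 to 4.37, Cyp2b13 5.24 to 5.42 and Cyp2b10 4.64 to 4.72. On slide 5 (control 1 and mice 6, 12 and 20) they were 3.77 to 4.03, 4.74 to 4.98 and 3.71 to 4.21. The part of the slide in these correlations was not tested.

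Many P450 genes known from liver were highest in 1 lung. Of the 31 genes 12 were highest in mouse 13, and for 5 of these 12 control 1 was second. Cyp2c29 passed the filter at the minimum of 4 arrays, those of controls 2 and 4 and mice 13 and 20. It would have failed without any 1 of them, mouse 13 included. Cyp2e1, the ethanol-inducible P450, had a log2 ratio of 3.80 in mouse 13, 0.60 in control 1 and 0.07 to 2.17 in the other 17 mice. Its lung signal was well above background on 12 of 19 arrays and its reference on 1, so its ratios have a denominator close to background. Cyp2d26, a member of the family of drug-metabolising Cyp2d enzymes, had 3.37 in mouse 13, 0.99 in control 1 and -0.43 to 0.14 in the others. Cyp2d10 had 2.76, 1.05 and 0.03 to 0.40, Cyp2c70, the enzyme that makes muricholic bile acids, 2.61, 0.70 and -0.14 to 0.40, and Cyp2c29 2.22, 0.35 and -0.23 to 0.10. Cyp3a11, the main drug-metabolising P450 of mouse liver, had 1.45 in mouse 13, 0.06 in control 1 and -0.10 to 0.16 in the others.

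Hepatocyte markers were also highest in mouse 13. Over the 9 markers with a probe the mean log2 ratio was 3.04 in mouse 13, with 8 markers well above background, and 1.13 in control 1, with 7. In the other 17 mice it was between -0.0001 and 0.21, with 2 to 4 markers above background. Fibrinogen beta (Fgb) had a log2 ratio of 5.25 in mouse 13 and 1.77 in control 1 and at most 0.20 elsewhere; transthyretin (Ttr) was well above background on 0 of 19 arrays. Of these markers only Ahsg and Tat passed the filter. Against their score 11 of the 31 P450 genes had an adjusted p under 0.05 over 19 mice, Cyp2d10 at r = 0.95 (permutation p = 2e-05, adjusted p = 0.00062; rho = 0.68, permutation p = 0.002, adjusted p = 0.0239). Without control 1 and mouse 13, 1 of the 11 kept its sign and a permutation p under 0.05, Cyp2e1, at r = 0.78; for Cyp2d10 r was -0.04, so these relations rest on those 2 mice. Cyp2e1 also went with the club cell score (r = 0.65, permutation p = 0.00177, adjusted p = 0.0119; rho = 0.52, permutation p = 0.0242, adjusted p = 0.139) and the adipocyte score (r = 0.73, permutation p = 0.00017, adjusted p = 0.00264; rho = 0.73, permutation p = 0.00062), with r of 0.55 and 0.69 without control 4 and mouse 20. With the cardiac muscle score r was 0.70 (permutation p = 0.00062, adjusted p = 0.00601; rho = 0.58, permutation p = 0.00956, adjusted p = 0.0741), and 0.65 without mice 12 and 20.

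**Figure D4:**
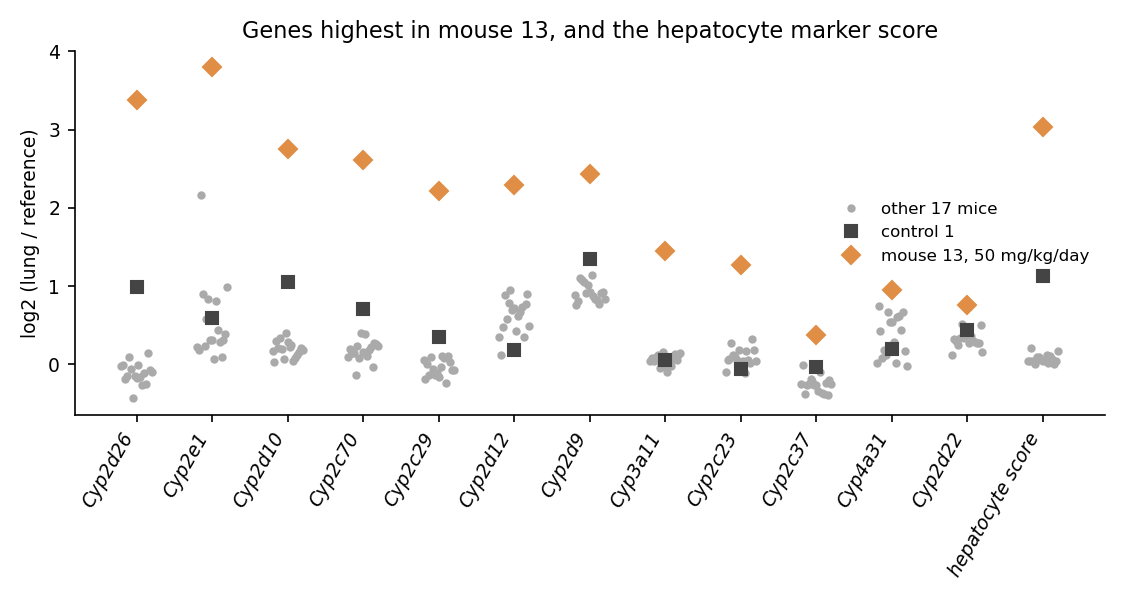
Log2 ratio of lung over reference RNA for the 12 P450 genes that were highest in mouse 13, and the mean of 9 hepatocyte markers at the right; the diamond is mouse 13 (50 mg/kg/day), the square control 1, and the small points the other 17 mice. The hepatocyte score is 3.04 in mouse 13 and 1.13 in control 1, and at most 0.21 elsewhere.

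Mouse 13 set the mean of these genes at 50 mg/kg/day. Cyp2d26 differed from control by 0.61 ± 0.50 at that dose (adjusted p = 0.660 in limma's test), by -0.27 without mouse 13 and by -0.05 without both mouse 13 and control 1. Of the 4 mice at 50 mg/kg/day only mouse 13 had a lung signal well above background for Cyp2d26, as did 3 of 5 controls. The values without mouse 13 are therefore no measured change. Cyp2d12 was 2.30 in mouse 13 and 0.12 to 0.95 in the other 17 mice, and its difference at 50 mg/kg/day of 0.60 had an unadjusted p of 0.0383 (adjusted p = 0.356). Of the 18 P450 symbols under the filter, 8 were well above background in mouse 13 and 5 of these on that array only: Cyp2a12, Cyp2c40, Cyp2d34, Cyp3a25 and Cyp3a44. The other three of the 8 were Cyp2j5, Cyp3a16 and Cyp4f14, each with 1 further array. Of the remaining symbols Cyp2c38, Cyp2c66, Cyp2j11, Cyp2r1 and Cyp4a14 were above background on 1 array, and Cyp2c39, Cyp2c54, Cyp2c55, Cyp2g1 and Cyp4a10 on 0.

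**Figure D5:**
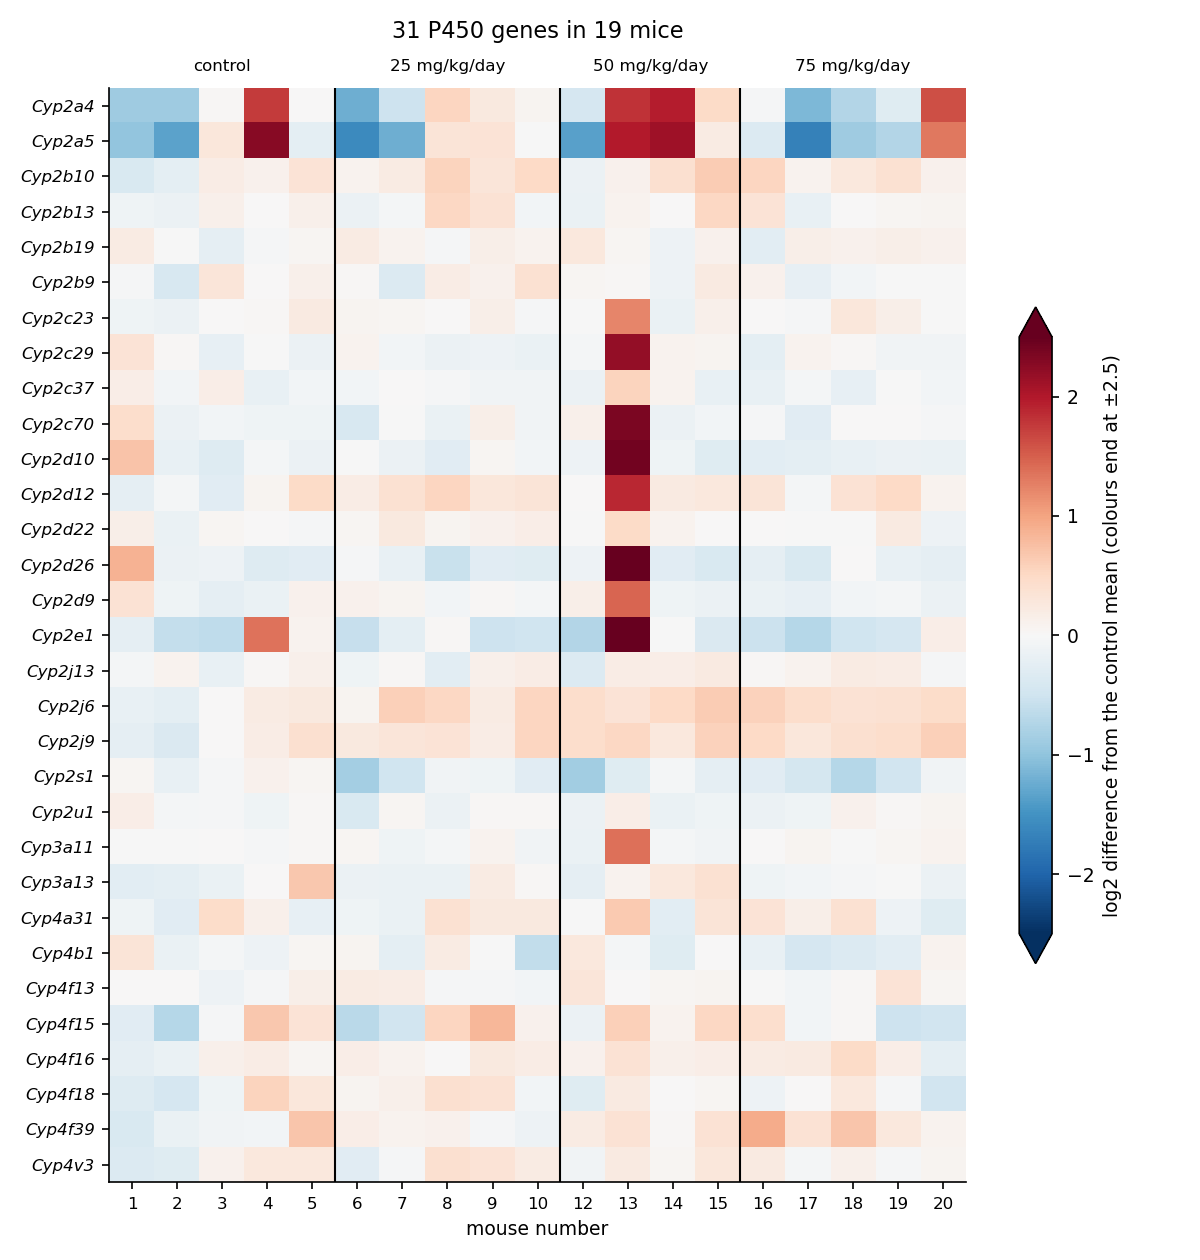
Log2 difference of each mouse from the control mean for the 31 P450 genes (rows) in 19 mice (columns, by dose group); red is above and blue below, and colours end at ±2.5. The liver-type genes stand out in mouse 13, with weaker colour in control 1 (and Cyp2e1 also in control 4), Cyp2a4 and Cyp2a5 in control 4 and mice 13, 14 and 20, and Cyp2j6 and Cyp2j9 are pale red in all treated groups.

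Among the other members no difference passed. Cyp4b1, a lung P450 that activates furans and aromatic amines, had log2 ratios of 6.37 to 6.86 in controls, 5.92 to 6.75 at 25, 6.24 to 6.80 at 50 and 6.12 to 6.62 at 75 mg/kg/day. Its difference at 75 mg/kg/day was -0.22 with an interval of -0.53 to 0.08 (adjusted p = 0.460 in limma's test). Cyp4f13, Cyp4f16 and Cyp4f18, which act on leukotrienes and other eicosanoids, differed at 75 mg/kg/day by 0.07, 0.16 and -0.07. Cyp4f15 spread from 1.57 to 3.10 over the mice and differed by -0.12, with the reference well above background on 2 arrays. Cyp3a13 differed by -0.08 at 75 mg/kg/day and was highest in control 5, at 0.89 against 0.22 or less in the other controls. Cyp2c23, Cyp2c37, Cyp2d9, Cyp2d22, Cyp2u1, Cyp4a31 and Cyp4v3 differed at 75 mg/kg/day by values between -0.13 (Cyp2d9) and 0.09 (Cyp4a31). For Cyp2c23 the lung signal was well above background on 1 of 5 arrays in controls and 1 of 5 at 75 mg/kg/day, so its value is no measured change. For Cyp2c37, Cyp2u1 and Cyp3a13 it was so in 2 of 5 controls each. Their control means thus rest mainly on signals not above background. Cyp2c29 and Cyp2u1 were not well above background on any array at 25 mg/kg/day. Their ratios differed there by -0.09 each, and with signals not above background these values are no measured change.

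Genes that serve the P450 enzymes also gave no calls. Of 10 tested genes of electron transfer and haem supply 0 passed in any of the 5 comparisons, with medians of 0.02, -0.001 and -0.04 at the 3 doses. P450 oxidoreductase (Por) differed by -0.36 ± 0.13 at 75 mg/kg/day (adjusted p = 0.152 in limma's test), cytochrome b5 reductase (Cyb5r3) by 0.39 ± 0.14 (adjusted p = 0.135) and ferredoxin reductase (Fdxr) by -0.28 ± 0.10 (adjusted p = 0.139). Of 16 tested nuclear receptors and transcription factors of P450 genes 0 passed, with a median of -0.07 at 75 mg/kg/day; the largest differences were -0.36 for Cebpb, -0.34 for Ppargc1a and -0.30 for Nfia (adjusted p = 0.176, 0.216 and 0.494). At 75 mg/kg/day 3334 of the 19315 genes had an unadjusted p under 0.05, and 2.65% passed the adjusted test as rising and 1.51% as falling.

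Of 17 tested other enzymes of arachidonic acid metabolism 2 rose at 75 mg/kg/day, against 2.65% of all genes tested. With 2 genes the count is no result about the list. Ephx1, the microsomal epoxide hydrolase that works on BaP epoxides beside P450 enzymes, rose by 0.78 ± 0.13, 1.23 ± 0.14 and 1.54 ± 0.13 at the 3 doses (adjusted p = 0.0275, 6.95e-05 and 7.61e-07 in limma's test), and rose between 25 and 75 mg/kg/day as well. Ltc4s, leukotriene C4 synthase, rose by 1.27 ± 0.32 at 75 mg/kg/day (adjusted p = 0.0259), with -0.03 and 0.67 at the lower doses. Alox12, a lipoxygenase, differed by 0.62 (adjusted p = 0.0540), Tbxas1, thromboxane synthase, by 0.50 (adjusted p = 0.194) and Alox5 by 0.34 (adjusted p = 0.407). The list's median was 0.09 at 75 mg/kg/day.

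Among PPAR targets and fatty acid oxidation genes, 18 tested, 2 fell at 75 mg/kg/day, against 1.51% of all genes tested, and the median was -0.30. With 2 genes the count is no result about the list. The mean of the list relative to the control mean was 0.35 in control 4 and 0.30 in control 5. It was -0.22, -0.21 and -0.22 in controls 1 to 3, and -0.42 to -0.30 at 75 mg/kg/day. Controls 4 and 5 thus raised the control mean behind this median. Acot1, an acyl-CoA thioesterase, fell at 50 mg/kg/day (-0.76, adjusted p = 0.0393 in limma's test, a call kept in 16 of 34 alternatives) and at 75 (-0.91, adjusted p = 0.00266). Slc27a1, a fatty acid transporter, fell at 75 mg/kg/day (-0.42, adjusted p = 0.0495); with median centring it was 0.12 higher where the median of all genes was 0.35. Fabp3, Pdk4 and Cpt1b, genes strong in heart and muscle, differed by -1.32, -1.08 and -0.65 (adjusted p = 0.283, 0.285 and 0.0731). The cardiac muscle score relative to the control mean had medians of -1.29, 0.22 and -2.49 at 25, 50 and 75 mg/kg/day. Controls 4 and 5 had the highest adipocyte scores of the controls, 1.26 and 0.83 above the control mean, and control 5 held the skeletal muscle genes. The part of these scores in the values of the list was not tested.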

How the data were processed

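Agilent mouse arrays carried lung RNA in Cy5 and reference RNA in Cy3, with no dye swap; per the file headers, spots were read with Feature Extraction 10.7.3.1 and the deposited intensity columns hold median spot and background signals. The authors' deposited log2 ratios, one column per mouse, served as an alternative; their scale and direction were checked against each array (slope 0.9905 to 0.9953, r 0.9953 to 0.9978, column medians -0.05 to -0.03); the sources used here do not give their centring. Here limma 3.58.1 (R 4.3.3) corrected background by normexp with an offset of 50 and normalised by loess within arrays. Outlier spots were dropped, spots of a probe averaged and the brightest probe kept per gene. Symbols came from RefSeq (GRCm38.p6) through transcript accessions: 23374 of 41174 probes matched. Probes well above background in lung on at least 4 of 19 arrays were tested over all groups, without covariates, at an adjusted p under 0.05. Named are members that passed, the 3 largest differences per dose, members with unadjusted p under 0.05 at 2 doses, and, of the gene lists, genes that passed plus up to 3 others. A cell type score is the mean log2 ratio of its tested markers. Members, lists and rules were chosen with earlier results of these data known. The number of arrays limits the precision. The limma fit was tested on simulated gene values and a permutation p on simulated pairs of values. The steps before them were not tested in this way.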

Additional observations from a re-analysis of the deposited data

Results flagged for a closer look

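In each dose group the highest or lowest mouse was marked where its gap to the nearest other mouse took more of the group's range than Dixon's critical value for its size. Of 124 groups (31 genes by 4 doses) 13 had such a mouse, and chance alone marks about 1 group in 20 where groups are independent. Here the genes share mice, and the share marked over all genes tested was not computed. The count is therefore no result about the P450 genes as a set. Mouse 13 accounted for 6 of the 13, as the highest mouse at 50 mg/kg/day: its gap was 0.941 of the range for Cyp2c29 (which passed the filter at the minimum of 4 arrays, this mouse among them), 0.888 for Cyp2c70, 0.924 for Cyp2d10, 0.87 for Cyp2d12, 0.93 for Cyp2d26 and 0.923 for Cyp3a11. Control 1 accounted for 3, as the highest control: 0.849 for Cyp2c70, 0.737 for Cyp2d10 and 0.841 for Cyp2d26. The 2 mice are those with hepatocyte markers, at a mean log2 ratio of 3.04 and 1.13.

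Control 5, the mouse with skeletal muscle genes, was the highest control for Cyp3a13 (0.713 of the range, 0.89 against at most 0.22). The other three were low mice: mouse 16 for Cyp2b19 (0.873, -0.26 against 0.09 to 0.15), mouse 17 for Cyp2c70 (0.863, -0.03 against 0.23 to 0.27) and mouse 12 for Cyp2j13 (0.912, -0.18 against 0.33 to 0.38). In mouse 12 neither channel was well above background for Cyp2j13.

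Outside the tested genes, 8 of the 18 P450 symbols under the filter were well above background in mouse 13. Cyp2c40 had a log2 ratio of 1.79 there, against at most 0.29 in any other mouse. Cyp3a25 had 1.61, against at most 0.12.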

How the results depend on the processing

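No paired analysis was possible because each mouse has its own number and no number is shared between dose groups. At 25 mg/kg/day 0 P450 genes were called in every alternative run, as for 75 against 25 mg/kg/day. Leaving out 1 mouse at a time gave 0 to 2 called genes at 50 mg/kg/day (2 without control 5, 1 without mouse 6), 0 to 3 at 75 mg/kg/day and 0 to 3 by the trend. The 2 genes called at 75 mg/kg/day became 0 with median centring, a normexp offset of 10, without the 4 arrays marked for evaluation, with only the 2 groups compared, and without control 1 and mouse 13; they became 1 with no background subtraction, Feature Extraction's processed signals (where the 1 gene was Cyp2s1), the lung channel alone or no filter. The 2 genes of the trend became 0 with the offset of 10, the processed signals, without the 4 arrays and without control 1 and mouse 13, and 1 with the lung channel alone, no filter or array weights (with array weights the 1 gene was Cyp4f39). With slide or scan day as a block 3 genes were called at 75 mg/kg/day, Cyp4f39 being the third. Over all genes, the count at 75 mg/kg/day was 802 as reported, 1769 with the slide as a block, 1495 with the scan day, 1350 with the processed signals and 414 with only the 2 groups; of calls there, 532 of 535 were higher with median centring, against 511 of 802, and 566 of 1350 with the processed signals. It was 515 with the offset of 10. At 50 mg/kg/day it was 209 as reported, 9 with median centring, 51 with only the 2 groups, 95 without the 4 arrays, 102 with the lung channel, 123 with the offset of 10, 337 and 407 with scan day and slide as a block and 515 with the processed signals. By the trend it was 898, against 1738, 1493 and 1589 with slide, scan day and processed signals.

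Cyp2j6 kept its sign at 75 mg/kg/day in 34 of 34 alternatives (0.38 to 0.61) and the call in 24 (adjusted p 0.0156 to 0.164); Cyp2j9 kept its sign in 34 (0.20 to 0.60) and the call in 18 (0.0067 to 0.759). By the trend they kept the call in 10 and 21 of 33. Signs that turned: with median centring at 75 mg/kg/day Cyp2a5 (0.0196), Cyp2s1 (0.35) and Slc27a1 (0.12; trend 0.11); with the processed signals at 25 mg/kg/day Cyp2a5 (0.0344) and Cyp2j9 (-0.25), and Cyp2j6 between 75 and 25 mg/kg/day (-0.00811); without control 1 and mouse 13 Cyp2d26 at 50 mg/kg/day (-0.049). Leaving out 1 mouse took Cyp2a5 from -0.77 to 0.13 at 25 mg/kg/day and from -0.92 to 0.10 at 75, Cyp2d26 at 50 from -0.27 to 0.95, and Cyp2j6 between 75 and 25 mg/kg/day from -0.0206 to 0.112. The cause was not tested. For Cyp2d26 only mouse 13 was well above background at 50 mg/kg/day, so its values there without mouse 13 are no measured change. The call of Ephx1 held in 34 of 34 alternatives at 75 mg/kg/day and in 21 at 25; that of Ltc4s in 25, of Acot1 in 33 and of Slc27a1 in 12 at 75 mg/kg/day, and that of Acot1 at 50 mg/kg/day in 16. Without the 2 mice farthest from the median score, and adjusted anew over all pairs, 16 pairs of gene and cell type score passed in place of 29. These include pairs outside the 29, such as Cyp2d12 with the endothelial and adipocyte scores (permutation p = 2e-05 and 0.00037). Of the 29, some kept their sign and an unadjusted permutation p under 0.05. These were 4 of 4 for club cells, 5 of 6 endothelial, 4 of 4 adipocyte, 2 of 4 cardiac muscle and 1 of 11 hepatocyte. The fits without control 1 and mouse 13 and the hepatocyte score without the filter were chosen after seeing the data.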
